A study of Homo sapiens with 6 samples.

Results

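Integrin and laminin subunits were the 38 genes, of 26255 gene symbols in the table, whose names match those of integrin α chains, integrin β chains and laminin α, β or γ chains, with antisense transcripts and binding proteins left out. There were 26 integrin and 12 laminin genes. Their mRNA was compared in MDA-MB-231 cells, a human triple-negative breast cancer line grown in serum-containing medium, between 3 libraries of cells carrying a control hairpin (shNT) and 3 libraries of cells carrying a hairpin against GPR81, the lactate receptor encoded by HCAR1 (shGPR81). Cells of both groups were infected with lentivirus in the presence of polybrene and selected with puromycin, so these steps are shared by the control. The sites of integration and the cells that survived selection may differ between the lines. The study made 2 hairpins against GPR81, and the labels do not say which was sequenced. The methods speak of resistant clones, but whether each line is a single clone or a pool of them, and whether the 3 libraries came from separate cultures, is not given in the sources used here, so p-values measure the spread between these libraries only, which may be technical. Values are FPKM (fragments per kilobase of transcript, scaled by the size of the library), which correct for transcript length and so allow levels of different genes to be set side by side. Depth is not given with them. The steps between low values put the 6 libraries within 1 to 1.07 of each other in depth and at medians of 11769528 to 12594146 reads.

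The targeted gene did not pass the test at the mRNA level. HCAR1 was at 0.968, 1.02 and 1.36 FPKM in shNT and at 0.978, 0.891 and 0.396 FPKM in shGPR81. The first 2 shGPR81 libraries lay close to the lower shNT libraries and shGPR81 replicate 3 was the lowest, with a log2 fold change of -0.57 (SE 0.31) and a Benjamini-Hochberg adjusted p of 0.380 in limma, so the groups are named by their labels throughout. Taken as the smallest whole numbers that give its FPKM, the reads of the gene were 129 in shNT and 92 in shGPR81. The depth-corrected ratio was 0.677, with a 95% interval of 0.513 to 0.892 that covers counting error only and depends on these read numbers. Of the markers of this mesenchymal line VIM was at 3211 to 4443 FPKM, and the luminal markers ESR1, PGR and CDH1 were at 0 in all 6 libraries. SPARC, listed as a mesenchymal marker, was at 0.126 FPKM or less, and the luminal keratin KRT18 was at 182 to 241 FPKM. Of 7 tested luminal markers 2 were higher in shGPR81 by adjusted p in limma, where 2.06% of all tested genes were. They were ERBB3 at 1.33 to 1.61 against 2.32 to 3.40 FPKM (adjusted p = 0.0352) and KRT19 at 65.4 to 88.8 against 105 to 123 FPKM (adjusted p = 0.0450). Of 6 tested mesenchymal markers 1 was higher by adjusted p, MSN at 332 to 371 against 409 to 454 FPKM (adjusted p = 0.0378). In the same list CD44 (log2 fold change -0.20, limma adjusted p = 0.0566) and S100A4 (-0.41, limma adjusted p = 0.0626) were lower without passing. At an unadjusted p under 0.05 in limma, 2 mesenchymal markers were lower and 1 higher. Of the luminal markers 1 was lower and 2 higher (background 9.43% lower and 10.1% higher). When a library was left out, ERBB3 passed only without shNT replicate 1, and KRT19 and MSN only without shNT replicate 1 or shNT replicate 3, with an adjusted p of up to 0.145 in the other fits. The luminal list summed to 411 to 526 FPKM in shNT and 431 to 500 FPKM in shGPR81. The mesenchymal list summed to 4035 to 4854 and 4843 to 5411 FPKM, of which VIM made 3211 to 3938 and 3960 to 4443 FPKM. The part of these markers in the results was not tested. In bulk RNA, fewer cells of a kind and less RNA per cell cannot be told apart.

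Integrins are cell surface receptors made of an α and a β chain, which bind extracellular matrix outside the cell and the actin or keratin cytoskeleton inside it. Laminins are trimers of an α, a β and a γ chain and are major adhesive proteins of basement membranes, the sheets that epithelial and carcinoma cells rest on or cross. The β1 chain pairs with many α chains, among them the laminin receptors α3 and α6 and the collagen receptors α1 and α2, whereas β4 pairs only with α6 and anchors keratin filaments at hemidesmosomes. The αv chain pairs with β1, β3, β5, β6 and β8, which bind RGD-containing ligands such as vitronectin and fibronectin or latent TGF-β.

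ITGB1 was the most abundant of the subunits in these cells at 478.5 ± 30.8 FPKM in shNT and 482 ± 10.3 FPKM in shGPR81 (SD, n = 3 each), and made up 84.6% to 88.4% of the summed FPKM of integrin β chains. The laminin receptor chains ITGA6 and ITGA3 led the α chains and together made up 67.4% to 73.9% of their summed FPKM. ITGA6 was above ITGA3 in each of the 6 libraries, although their ranges in shNT, 145 to 162 and 111 to 147 FPKM, overlapped. ITGA2, a collagen receptor chain, followed with 49.5 to 70.8 FPKM over the 6 libraries, well above the RGD-binding chains ITGAV (20.2 to 29.4 FPKM) and ITGA5 (20.3 to 25.7 FPKM), which overlapped each other, and above the collagen receptor chain ITGA1 (10.1 to 14.1 FPKM). Among laminins, LAMB3 and LAMC1 were the highest, with means of 89.5 and 62.6 FPKM over all libraries. Every laminin α chain was lower than these, LAMA5 at 9.99 to 15.3 FPKM, LAMA3 at 5.06 to 8.39 FPKM and LAMA4 at 0.906 to 2.42 FPKM. Of the 38 subunits 20 averaged 1 FPKM or more and 14 averaged 10 FPKM or more.

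**Figure D1:**
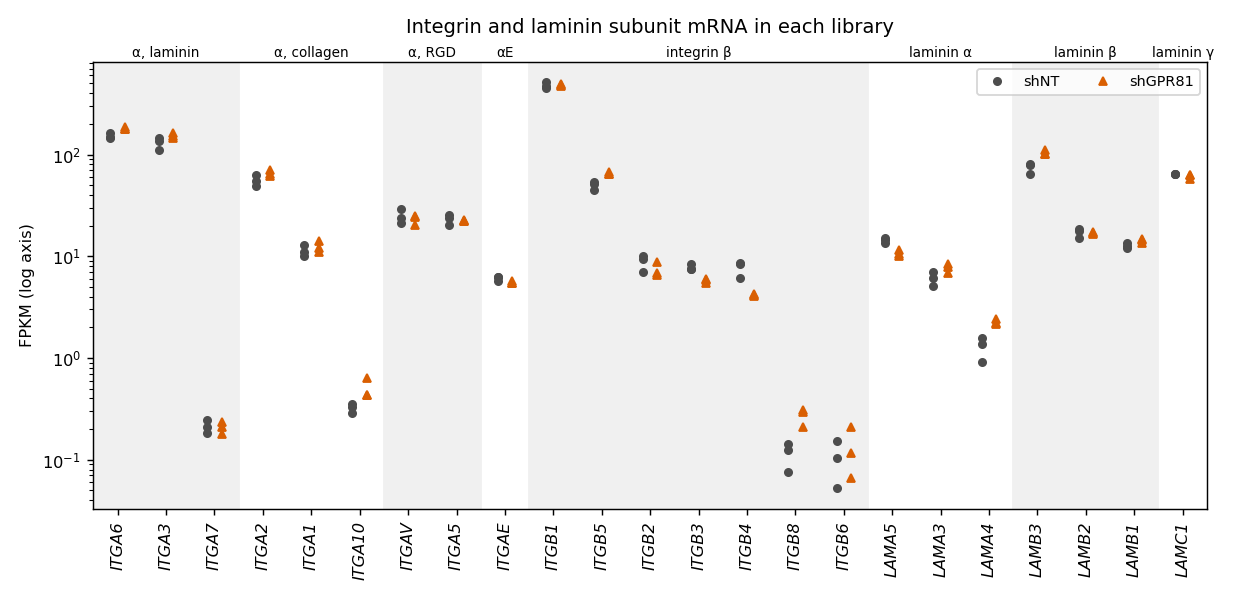
FPKM (log axis) of 23 integrin and laminin subunits that passed the expression filter, grouped by role, with 1 point per library (circles shNT, triangles shGPR81). ITGB1 stands above all other subunits at 454 to 513 FPKM, and ITGB4 and LAMB3 are among the genes whose groups do not overlap.

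The comparison of shGPR81 with shNT asks which adhesion receptors and matrix chains differ between cells with the GPR81 hairpin and control cells. Effects of targeting GPR81 and other differences between the lines cannot be told apart in this design. After the filter of 0.1 FPKM in at least 3 libraries, 24 subunits (16 integrin, 8 laminin) were tested among 14349 genes with limma on log2(FPKM + 0.1), a scale on which changes of low genes are understated. At the study's thresholds of adjusted p under 0.05 and fold change above 1.5, ITGB4 was the 1 subunit called lower, where 1.59% of all tested genes were, and 0 were called higher, where 0.955% were. At an unadjusted p under 0.05, 8 subunits were higher and 3 lower, where 10.1% and 9.43% of all tested genes were. Without the fold threshold 6 subunits had an adjusted p under 0.05, against 5.13% of all tested genes. ITGB4, ITGB3 and LAMA5 fell (background 3.07%), and LAMB3, ITGB5 and ITGA6 rose (background 2.06%). The 16 integrins had a median log2 fold change of 0.06 and the 8 laminins of 0.07, beside 0.01 over all tested genes, and 11 subunits lay below 0 and 13 above. The families therefore held changes in both directions with medians near that of all genes.

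**Figure D2:**
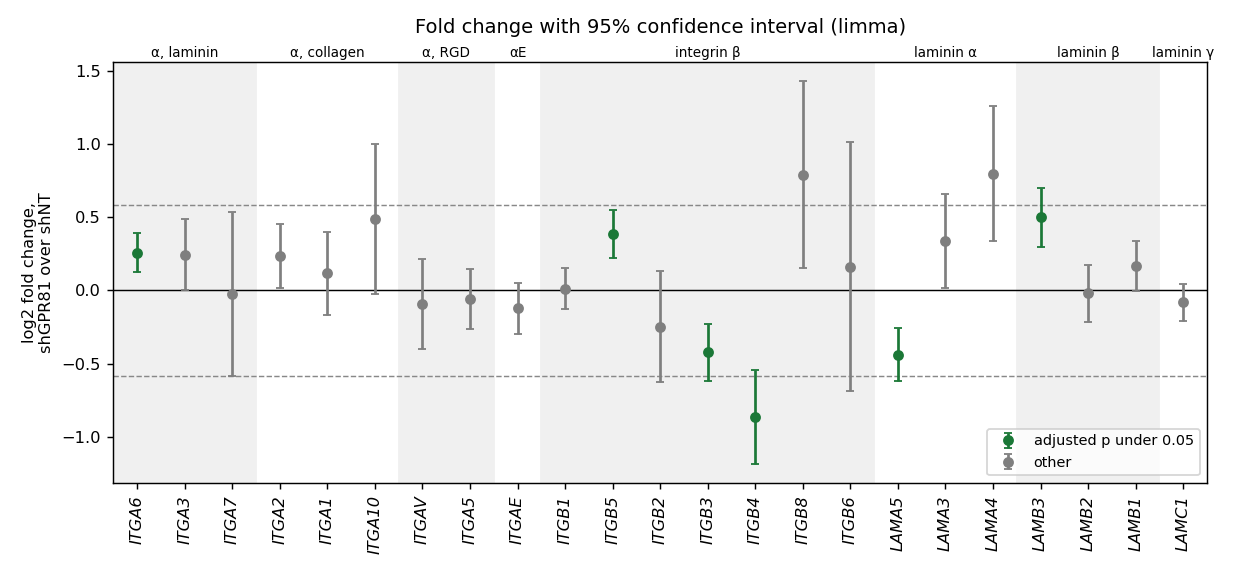
Log2 fold change of shGPR81 over shNT for 23 tested subunits with 95% confidence intervals from limma (n = 3 libraries per group), with dashed lines at a fold change of 1.5. Intervals of the 6 subunits in green (adjusted p under 0.05) exclude 0, and ITGB4 is the 1 of them beyond a dashed line, at -0.86.

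ITGB4, the hemidesmosome chain that binds laminin together with α6 (chromosome 17, 73717408 to 73753899 of GRCh37, plus strand), was at 6.13, 8.47 and 8.65 FPKM in shNT and at 4.04, 4.17 and 4.28 FPKM in shGPR81. All 3 shGPR81 libraries were below every shNT library, and the first shNT library was the closest to them. The log2 fold change was -0.86 (limma, SE 0.14, adjusted p = 0.0131), a fold of 0.55 on the log2(FPKM + 0.1) scale. The call was lost when shNT replicate 2 (adjusted p = 0.0695), shGPR81 replicate 1 (0.0703) or else shGPR81 replicate 2 (0.0636) was left out, while the log2 fold change stayed between -1.02 and -0.78 over the 6 fits that left out a library. ITGB3, the vitronectin receptor chain that pairs with αv (chromosome 17, 45331193 to 45391109, plus strand), was at 8.35, 7.43 and 7.57 FPKM in shNT and at 6.02, 5.91 and 5.41 FPKM in shGPR81. These groups too were apart, with a log2 fold change of -0.42 (limma, SE 0.08, adjusted p = 0.0311). ITGB3 kept an adjusted p under 0.05 only without shNT replicate 1, and the adjusted p rose to as much as 0.115 when any of the other 5 libraries was left out.

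ITGB5, the other αv partner for vitronectin that is abundant here (chromosome 3, 124480795 to 124620265, minus strand), moved the opposite way. It was at 45.3, 51.2 and 53.7 FPKM in shNT and at 64.9, 63.9 and 67.1 FPKM in shGPR81, a log2 fold change of 0.38 (limma, SE 0.07, adjusted p = 0.0217). ITGA6 (chromosome 2, 173292082 to 173371187, plus strand) was at 162, 145 and 148 FPKM in shNT and at 177, 186 and 180 FPKM in shGPR81. It rose by 19.5% (log2 fold change 0.26, limma SE 0.06, adjusted p = 0.0483), the smallest of the 6 changes and the one nearest to the threshold. The chains of the α6β4 receptor thus moved in opposite directions, ITGA6 up and ITGB4 down. When a library was left out, ITGB5 passed only without shNT replicate 1 or shNT replicate 3, with an adjusted p of up to 0.0979 in the other 4 fits, and ITGA6 only without shNT replicate 1, with up to 0.191 in the other 5. ITGA6 also missed the threshold under median centring, quantile normalization, no filter or a pseudocount of 0.01, with an adjusted p of 0.0510 to 0.148.

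LAMB3, a β chain of hemidesmosomal laminin, where it pairs with LAMA3 (chromosome 1, 209788215 to 209825770, minus strand), was at 64.8, 78.1 and 79.9 FPKM in shNT and at 101, 102 and 111 FPKM in shGPR81. It rose by 41.5% without overlap of the groups, with a log2 fold change of 0.50 (limma, SE 0.09, adjusted p = 0.0183). LAMA5, the α chain of trimers with LAMB1 or LAMB2 and LAMC1 (chromosome 20, 60883011 to 60942368, minus strand), was at 13.6, 15.3 and 14.6 FPKM in shNT and at 11.5, 9.99 and 10.6 FPKM in shGPR81. It fell by 26.2% (log2 fold change -0.44, limma SE 0.08, adjusted p = 0.0194), again without overlap. LAMB3 had an adjusted p under 0.05 only without shNT replicate 1 or shNT replicate 3 and up to 0.0756 in the other 4 fits, and LAMA5 only without shNT replicate 1 or shGPR81 replicate 1 and up to 0.0964 in the other 4. Centring of its chromosome also ended the adjusted p of LAMA5 (0.891). ITGB4 overlaps GALK1 and LAMA5 overlaps ADRM1 and LAMA5-AS1 on the other strand, and it is not given whether counting used strand. ITGA6, ITGB5 and ITGB3 also overlap noncoding RNA genes on the other strand. ITGB3 overlaps a protein-coding gene (ENSG00000259753) on the same strand as well, so reads there may not be fully separate. LAMB3 has no such overlap in the annotation. For all 6 genes the exact two-sided permutation test gave p = 0.1, the smallest that 3 against 3 libraries allow.

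**Figure D3:**
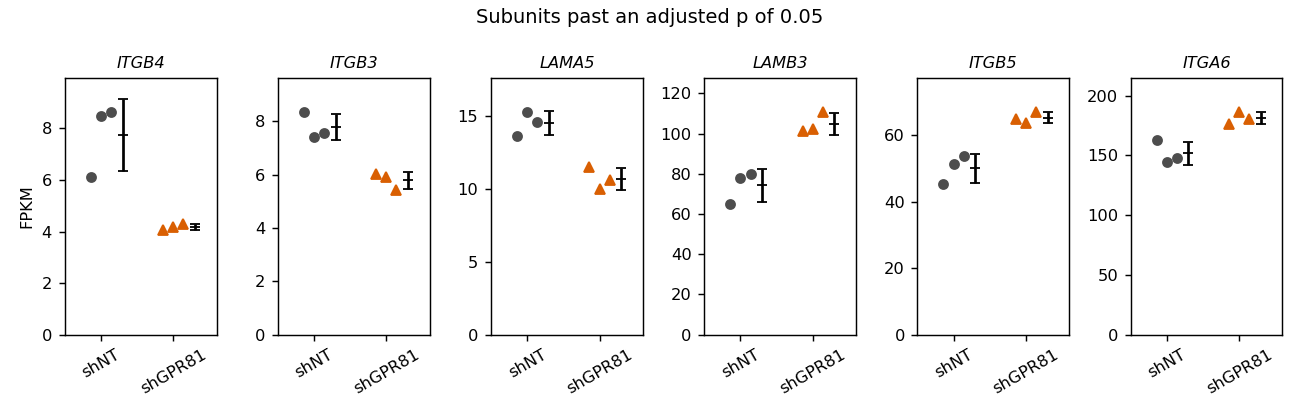
FPKM in each library (points, in order of replicate number) with mean and SD (bars, n = 3) for the 6 subunits with an adjusted p under 0.05. In each panel the shNT and shGPR81 points do not overlap, with ITGB4 at 6.13 to 8.65 against 4.04 to 4.28 FPKM.

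The sequences upstream of the start sites are shown for those of the 6 genes that the RefSeq promoter table (GRCh38.p14) holds. ITGB3 and ITGB4 are not in the table, so LAMA5 is the only falling gene shown. Its fall was about that of its chromosome, as given below, so the windows cannot set rising against falling genes. Each run gives the 250 bases before the most upstream start of the gene, on the strand of the gene, and the windows are chr2:172427086-172427335 (plus) for ITGA6, chr3:124901419-124901668 (minus) for ITGB5, chr1:209652426-209652675 (minus) for LAMB3 and chr20:62367313-62367562 (minus) for LAMA5. Capitals mark matches, on either strand and without overlap, to the GC box GGGCGG, the E2 box CAGGTG that zinc finger repressors of epithelial genes recognise, and the TATA box TATAAA.
ITGA6: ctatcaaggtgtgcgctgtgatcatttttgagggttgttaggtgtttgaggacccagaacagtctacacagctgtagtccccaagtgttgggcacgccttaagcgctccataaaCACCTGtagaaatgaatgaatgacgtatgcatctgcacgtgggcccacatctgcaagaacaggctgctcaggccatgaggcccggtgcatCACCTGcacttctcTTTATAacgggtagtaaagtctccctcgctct
ITGB5: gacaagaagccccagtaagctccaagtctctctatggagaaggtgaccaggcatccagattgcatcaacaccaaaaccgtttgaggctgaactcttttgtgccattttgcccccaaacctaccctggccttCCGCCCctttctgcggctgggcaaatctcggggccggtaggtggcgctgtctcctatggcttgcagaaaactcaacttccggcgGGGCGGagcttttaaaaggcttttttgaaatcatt
LAMB3: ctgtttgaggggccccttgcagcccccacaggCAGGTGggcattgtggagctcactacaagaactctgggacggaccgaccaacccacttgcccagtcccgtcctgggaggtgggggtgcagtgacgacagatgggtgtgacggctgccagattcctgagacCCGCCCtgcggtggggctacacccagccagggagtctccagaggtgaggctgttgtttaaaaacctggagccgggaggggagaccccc
LAMA5: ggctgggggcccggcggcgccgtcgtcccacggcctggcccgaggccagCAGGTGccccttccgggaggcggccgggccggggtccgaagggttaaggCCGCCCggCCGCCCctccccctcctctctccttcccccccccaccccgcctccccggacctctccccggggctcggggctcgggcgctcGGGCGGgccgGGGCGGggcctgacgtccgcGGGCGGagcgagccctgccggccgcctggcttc

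The LAMA5 window was the richest in G and C of the 4, at 82.8%, and held 5 GC boxes and 1 E2 box. The ITGA6 window, at 50.8% G and C, held 0 GC boxes but 2 E2 boxes, the nearer beginning 46 bases before the start. Its TATA letters, 32 bases before the start, were matched on the strand opposite the gene (TTTATA). The ITGB5 window had 2 GC boxes and that of LAMB3 1 GC box and 1 E2 box. Windows of other starts differed. The other ITGA6 window, at 71.6% G and C, held 3 GC boxes, 0 E2 boxes and 0 TATA boxes. Another ITGB5 window, at 75.2%, held 3 GC boxes and 1 E2 box, and the other LAMB3 windows held 0 E2 boxes. Over the 25 windows of the 18 tested subunits in the table, 15 held a GC box (42.6% of all 35116 promoters did), 6 an E2 box (17.5%), 2 a TATA box (10.7%), 2 the AP-1 letters TGANTCA (6.57%) and 0 the CRE letters TGACGTCA (1.65%). Windows of the same gene can overlap and share a match, as 2 of LAMB3 do, so these counts are not of independent sequences. The windows with AP-1 letters belong to LAMA3 and to the most downstream start of LAMB3, chains that occur in the same trimer. A match is a string of letters and not evidence of binding, and both the motifs and the choice of start were made after the values and sequences had been seen.

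Several other subunits lay apart without passing the adjusted threshold. Of the 24 tested, 5 were lower and 7 higher in every shGPR81 library than in every shNT library, where 12.7% and 12.9% of all tested genes were (25.6% in either direction). LAMA4, a chain of basement membranes around vessels and muscle, was at 1.37, 0.906 and 1.56 FPKM in shNT and at 2.19, 2.42 and 2.14 FPKM in shGPR81. Its log2 fold change of 0.80 (SE 0.20) had an adjusted p of 0.0672 in limma. Without shNT replicate 3 the adjusted p of LAMA4 was 0.0490. ITGA3, at 111, 136 and 147 FPKM in shNT and 147, 152 and 165 FPKM in shGPR81, had a log2 fold change of 0.24 (limma, SE 0.10, adjusted p = 0.25), and its highest shNT library nearly met its lowest shGPR81 library. ITGAE, the αE chain that binds E-cadherin together with β7, was at 6.19, 6.23 and 5.73 FPKM in shNT and at 5.47, 5.50 and 5.68 FPKM in shGPR81 (log2 fold change -0.12, limma SE 0.08, adjusted p = 0.450). LAMC1, the γ chain of most laminin trimers, was at 64.5, 64.2 and 64.2 FPKM in shNT and at 57.0, 62.7 and 62.8 FPKM in shGPR81 (log2 fold change -0.08, limma SE 0.05, adjusted p = 0.480).

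Apart from ITGA6 and ITGB5, the integrin chains averaging 10 FPKM or more did not pass the adjusted threshold. The 95% intervals of ITGB1, ITGAV, ITGA5 and ITGA1 included 0, and those of ITGA2 and ITGA3 (0.004 to 0.486) did not. ITGB1 was at 513, 468 and 454 FPKM in shNT and at 479, 494 and 474 FPKM in shGPR81. The groups overlapped, and the log2 fold change of 0.01 had a 95% interval of -0.13 to 0.15 (limma, adjusted p = 0.941). ITGAV was at 29.4, 23.7 and 21.2 FPKM and at 25.05, 24.3 and 20.2 FPKM, with a log2 fold change of -0.09 and an interval of -0.40 to 0.22 (limma, SE 0.13, adjusted p = 0.779), so αv did not move detectably while ITGB3 fell and ITGB5 rose. ITGA5, the fibronectin receptor chain, was at 20.3, 23.9 and 25.7 FPKM and at 22.2, 22.0 and 22.5 FPKM, with a log2 fold change of -0.06 (interval -0.27 to 0.14, limma SE 0.09, adjusted p = 0.774). For the collagen receptors, ITGA2 was at 62.4, 55.4 and 49.5 FPKM in shNT and 63.9, 70.8 and 61.6 FPKM in shGPR81 (log2 fold change 0.24, interval 0.02 to 0.45, limma SE 0.09, adjusted p = 0.221), and ITGA1 at 13, 11.0 and 10.1 FPKM and 12.1, 14.1 and 10.9 FPKM (0.12, SE 0.12, adjusted p = 0.682). The annotation places the gene PELO inside ITGA1 on the same strand, so reads of the 2 may not be fully separate.

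Of the remaining laminin chains, LAMA3 was at 7.07, 6.13 and 5.06 FPKM in shNT and at 8.39, 7.84 and 6.80 FPKM in shGPR81, a log2 fold change of 0.34 (limma, SE 0.14, adjusted p = 0.233) with overlapping groups. The groups of LAMB3, which pairs with it, lay apart, while those of LAMA3 met. LAMB1 was at 13.6, 12.5 and 12.1 FPKM and at 14.9, 14.5 and 13.4 FPKM (log2 fold change 0.17, SE 0.07, adjusted p = 0.262), and LAMB2 at 15.2, 18.7 and 17.9 FPKM and at 17.3, 16.6 and 17.0 FPKM (-0.02, SE 0.08, adjusted p = 0.930).

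Ratios of partner chains within a library, chosen after the values had been seen and given without a test, show the same changes as balances. ITGB4 per ITGA6 was 0.0515 ± 0.0120 (SD, n = 3) in shNT and 0.0230 ± 0.000685 in shGPR81. ITGB5 per ITGB3 was 6.48 ± 0.912 in shNT and 11.3 ± 0.929 in shGPR81, with 5.43 to 7.10 and 10.8 to 12.4 over the libraries. Both balances lay apart between the groups in every library. LAMA5 per LAMA3 was 2.44 ± 0.483 and 1.40 ± 0.144. As a share of summed laminin α FPKM, LAMA5 went from 66.2% ± 4.0 to 51.5% ± 2.44, LAMA3 from 27.7% ± 4.10 to 36.9% ± 2.06 and LAMA4 from 5.86% ± 1.67 to 10.9% ± 1.006. LAMA5 remained the highest laminin α chain in each library. ITGB3, ITGB4 and ITGB5 together made up 10.3% to 13.1% of summed β chain FPKM in shNT and 12.9% to 13.7% in shGPR81, so the opposite changes took place within a small part of the β pool.

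**Figure D4:**
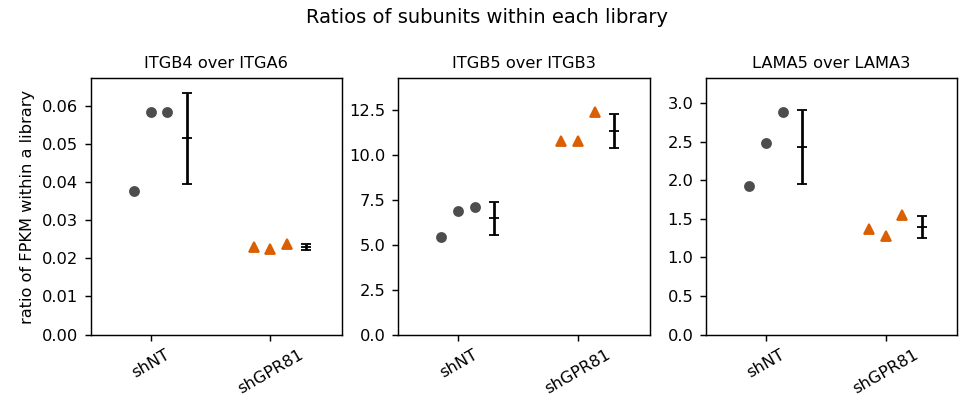
Ratio of the FPKM of partner or alternative chains within each library (points) with mean and SD (bars, n = 3). ITGB4 over ITGA6 and LAMA5 over LAMA3 lie lower in all 3 shGPR81 libraries, and ITGB5 over ITGB3 (10.8 to 12.4 against 5.43 to 7.10) lies higher.

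LAMA5 lies on a chromosome that was lower as a whole in shGPR81. The 268 genes of chromosome 20 that averaged 5 FPKM or more had a median log2 fold change of -0.40 (quartiles -0.52 and -0.31), 258 were below 0, and 111 were lower than LAMA5. On every other chromosome summarised the median was from -0.03 to 0.10. With the median deviation of its chromosome subtracted in each library, LAMA5 had a log2 fold change of -0.03 (limma, SE 0.07, adjusted p = 0.891). The fall of LAMA5 was therefore about that of its chromosome, and no separate difference was detected. ITGB4 and ITGB3 lie on chromosome 17, whose median was -0.01, and kept -0.87 (adjusted p = 0.00488) and -0.43 (adjusted p = 0.0636) after the same step.

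**Figure D5:**
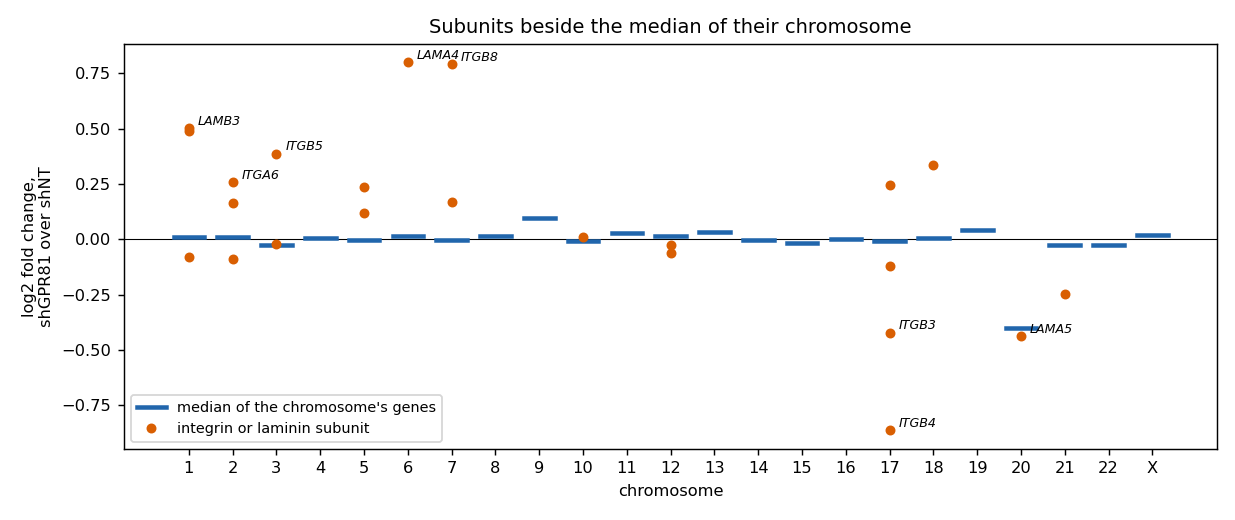
Log2 fold change of 23 tested subunits (points) beside the median of all genes averaging 5 FPKM or more on the same chromosome (bars). LAMA5 sits at the chromosome 20 median of -0.40, whereas ITGB4 and ITGB3 lie far below the chromosome 17 median of -0.01.

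The shNT libraries differed from each other along the GC content of the transcripts. The deviation from the group mean correlated with GC content at -0.39, 0.11 and 0.35 in the 3 shNT libraries and at -0.04, -0.17 and 0.18 in the 3 shGPR81 libraries, over 8500 genes that are not independent. Among the 20 subunits averaging 1 FPKM or more, 8 of the 9 above 54% GC were higher in shNT replicate 3 than in replicate 1 and 5 of the 5 below 45% were lower. LAMA4, at 45.1% GC just outside the lower cut, was higher in shNT replicate 3 (1.56 FPKM) than in replicate 1 (1.37 FPKM). ITGB4 is at 63.6% GC, and its lowest shNT value was that of replicate 1. After a GC correction of each library, which was added after seeing this, ITGB4 had a log2 fold change of -0.90 (limma, SE 0.08, adjusted p = 0.000265), LAMB3 0.48 (SE 0.03, adjusted p = 0.000131) and ITGB5 0.37 (SE 0.03, adjusted p = 0.000370). With this correction ITGA3 (0.21, adjusted p = 0.0114), ITGA2 (0.24, adjusted p = 0.0440) and LAMA4 (0.80, adjusted p = 0.030) passed as well, and these p-values do not allow for the fitting of the curve.

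Rare subunits were read from few fragments. ITGB8, an αv partner that activates latent TGF-β, was at 0.144, 0.124 and 0.0760 FPKM in shNT and at 0.308, 0.296 and 0.208 FPKM in shGPR81, read as 17, 15 and 9 fragments and as 39, 37 and 26 fragments. The groups were apart with a depth-corrected read ratio of 2.36 (95% interval 1.63 to 3.48, counting error only), and the log2 fold change of 0.79 (SE 0.27) had an adjusted p of 0.165 in limma. LAMA2, the α chain of muscle laminin, was just under the filter with 6, 3 and 7 reads in shNT and 14, 14 and 15 reads in shGPR81, a ratio of 2.55 (95% interval 1.41 to 4.85). In the limma fit without a filter its log2 fold change of 0.54 (SE 0.15) had an adjusted p of 0.141. Both intervals of read ratios exclude 1, but they leave out the variation between cultures. ITGA10, a collagen receptor chain, was at 0.329, 0.351 and 0.286 FPKM and at 0.629, 0.429 and 0.433 FPKM (log2 fold change 0.49, limma SE 0.22, adjusted p = 0.281). ITGA7, a laminin receptor chain of muscle, was at 0.179 to 0.246 FPKM and ITGB6, an epithelial αv partner, at 0.0522 to 0.210 FPKM over the 6 libraries, with overlapping groups and log2 fold changes of -0.03 (SE 0.24) and 0.16 (SE 0.36).

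Leukocyte and platelet integrins were mostly missing. ITGAD, ITGAM and LAMB4 were listed at 0 in all 6 libraries, and ITGA11, ITGA2B, ITGA4, ITGA8, ITGA9, ITGAL, ITGAX, ITGB7, LAMA1 and LAMC3 were at 0.109 FPKM or less in each library and were not tested. ITGAX, a leukocyte chain, had 2, 2 and 3 reads in shNT against 1, 0 and 0 in shGPR81, a ratio of 0.136 with an interval of 0.00301 to 1.06. ITGB2, the β chain that leukocyte α chains share, was by contrast at 7.05, 9.43 and 10.03 FPKM in shNT and at 6.56, 6.81 and 8.88 FPKM in shGPR81 (log2 fold change -0.25, limma SE 0.16, adjusted p = 0.485), with no partner α chain above 0.0554 FPKM. The leukocyte markers CD3E and SPI1 were at 0 throughout and PTPRC at 0.0286 FPKM or less. The summed level of the 8 leukocyte markers was 80.9 to 106 FPKM in shNT and 114 to 133 FPKM in shGPR81, of which CD68 made 76.7 to 129 FPKM. CD14, of the same list, was lower, at 2.24, 4.29 and 3.62 FPKM in shNT and 1.74, 1.14 and 1.58 FPKM in shGPR81 (log2 fold change -1.10, limma SE 0.26, adjusted p = 0.0562). Platelet markers summed to 0.230 to 0.814 and 0.516 to 1.14 FPKM and endothelial markers to 0.818 to 1.05 and 0.798 to 1.23 FPKM, with PPBP, GP9 and CDH5 at 0. The part of these markers in the values of ITGB2, ITGAE and ITGAX was not tested.

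Of the genes that connect these receptors to the cell or bind beside them, 69 in 5 lists were tested and 4 (5.80%) were called, where 2.54% of all tested genes were. Of the focal adhesion adaptors, which link integrin tails to actin, 25 of 27 were tested, 1 was called lower and 1 higher, and the median log2 fold change was -0.05. TNS4, a tensin that binds β tails, was at 5.98, 6.09 and 6.88 FPKM in shNT and at 2.77, 2.84 and 2.996 FPKM in shGPR81, less than any shNT value. Its log2 fold change was -1.11 (limma, SE 0.09, adjusted p = 0.00117). FERMT3, the kindlin of blood cells, was at 0.124, 0.121 and 0.0620 FPKM in shNT and at 0.929, 0.588 and 0.733 FPKM in shGPR81, a log2 fold change of 2.07 (limma, SE 0.26, adjusted p = 0.00519) at low level. Both kept an adjusted p under 0.05 in all 6 fits that left out a library. The kinase gene SRC fell without passing the fold threshold (log2 fold change -0.38, adjusted p = 0.0183), but it lies on chromosome 20 and was at 0.03 (adjusted p = 0.826) once its chromosome was centred.

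Of 25 other matrix ligands 17 were tested, 1 was called lower and 1 higher, with a median of 0.01. THBS1, thrombospondin, was at 28.7, 31.0 and 29.5 FPKM in shNT and at 19.7, 20.3 and 20.6 FPKM in shGPR81 (log2 fold change -0.56, limma SE 0.05, adjusted p = 0.00208), under the fold threshold and with an adjusted p of at most 0.0198 in the fits that left out a library. Fibronectin (FN1, -0.28, adjusted p = 0.0148) and TGFBI (-0.38, adjusted p = 0.00956) fell as well, and tenascin C (TNC, 0.36, adjusted p = 0.0280) rose. TNC was at 0.27 (adjusted p = 0.0741) once its chromosome, 9, was centred. SPP1, the integrin ligand osteopontin, was called higher at 1.37, 2.09 and 1.79 FPKM against 3.13, 2.98 and 3.99 FPKM (log2 fold change 0.91, SE 0.18, adjusted p = 0.0313) and passed only without shNT replicate 1 when a library was left out, with up to 0.107 in the other 5. FBLN5, fibulin 5, was called lower at 1.05, 0.817 and 1.16 FPKM against 0.558, 0.537 and 0.480 FPKM (-0.82, SE 0.18, adjusted p = 0.0491) and passed in 0 of the 6, with 0.0707 to 0.153. It also missed the threshold or the filter under 6 other settings, among them a pseudocount of 0.01 and quantile normalization. TNC likewise passed only without shNT replicate 1 (up to 0.122 in the other 5), FN1 failed without shNT replicate 2 or any shGPR81 library (up to 0.0859), and TGFBI failed without shNT replicate 2, without shGPR81 replicate 1 and without shGPR81 replicate 2 (up to 0.0621).

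Of the 12 other laminin receptors, all tested, 0 were called by limma, 3 were lower and 1 higher at an unadjusted p under 0.05 (background 9.43% and 10.1%), and the median was -0.04. The highest were LGALS1 at 967 to 1370 FPKM (0.16, adjusted p = 0.509) and RPSA at 614 to 712 FPKM (-0.11, adjusted p = 0.340), whose groups overlapped for LGALS1 and not for RPSA. SDC4, a syndecan of focal adhesions, had -0.29 (adjusted p = 0.0476) and, being on chromosome 20, 0.12 (adjusted p = 0.242) after centring. Among hemidesmosome partners 3 of 7 were tested, 0 were called by limma and 1 was higher at an unadjusted p under 0.05 (background 10.1%). PLEC, which ties β4 to keratin, was at 52.9 to 72.6 FPKM (0.04, adjusted p = 0.902) and DST at 16.9 to 22.7 FPKM (-0.06, adjusted p = 0.804), and the basal keratins KRT5, KRT17 and KRT6A were at 0. The cells thus held ITGA6, ITGB4 and PLEC mRNA with none detected of these keratins. Of the 13 membrane partners of integrins, such as tetraspanins, 0 were called by limma and 2 were higher at an unadjusted p under 0.05 (background 10.1%), with a median of 0.11. BSG was at 333 to 448 FPKM (0.04, adjusted p = 0.878) and CD63 at 243 to 334 FPKM (0.26, adjusted p = 0.0984).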

How the data were processed

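RNA of 3 shNT and 3 shGPR81 libraries of MDA-MB-231 cells was sequenced with TruSeq stranded mRNA libraries as single-end reads. The authors deposited FPKM, 1 value per gene symbol and library, made with TopHat2 2.0.13, Bowtie2 2.2.3, SAMtools 0.1.19 and Cuffnorm 2.2.1 per the labels. The paper names the human genome hg19 (GRCh37) and the labels name mouse mm10; since the cells and the symbols are human, GRCh37 was used. The paper describes read counts analysed in iDEP, but the values used here are FPKM, so a count test was not run. Whether strand was used in counting is not given in the sources used here, so reads of overlapping antisense genes may not be separate.

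The logarithm log2(FPKM + 0.1) was fitted with limma 3.58.1 in R 4.3.3 (lmFit and eBayes with trend), without a block, over 14349 genes that reached 0.1 FPKM in 3 or more of the 6 libraries, with Benjamini-Hochberg adjustment. A call needed an adjusted p below 0.05 with a fold change over 1.5, as in the paper. The subunits, lists and named genes were chosen with earlier results of these data known. Every tested subunit but 1, which is not reported here, was named, in full where its adjusted p was under 0.05, its groups did not overlap at a mean of at least 1 FPKM, or it was among the 2 highest of its role; of the lists, genes past both thresholds or else the 2 highest. SRC, THBS1, FN1, TGFBI, TNC and SDC4 were named after their values were seen because of their adjusted p. The fit was checked on simulated data, with planted changes larger than that of any tested subunit and noise drawn independently for each value. This check does not cover changes of the size seen in the subunits.

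Coordinates come from GENCODE release v44lift37, in which all 38 subunits were found. Alternatives were pseudocounts of 1 and 0.01, a filter of 1 FPKM and none, median centring, quantile normalization, a replicate block, each library left out, and centring of chromosomes with at least 20 genes; a GC correction over 13797 of the 14349 genes was added after seeing the data. In the centring, the median deviation of a chromosome from the gene means was subtracted in each library, after a first version that used median levels had been corrected.

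Reads were taken as the smallest whole multiples (up to 60, relative tolerance 0.0001) that give the FPKM of a gene in all libraries, which gave reads for 3553 of 15931 genes. The true reads of a gene may be a multiple of these numbers. The limits of this step were tightened after it gave false results on simulated data and an implausible value for ITGB7. Read ratios have 95% Clopper-Pearson intervals after correction for depth, which cover counting error only, and depths use the longest transcript. The replicate numbers did not pair the libraries: deviations of same-numbered libraries correlated at 0.12, 0.02 and 0.01 across genes.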

Additional observations from a re-analysis of the deposited data

How the results depend on the processing

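Of 203 values of tested subunits recomputed with all libraries, 190 kept their direction and side of the threshold, 8 lost and 3 gained an adjusted p under 0.05, and 2 changed sign. The sign changes were those of ITGB1 under quantile normalization (-0.0014) and LAMB2 under chromosome centring (0.0078), both near 0. ITGA6 lost its adjusted p under median centring (0.0542), no filter (0.0658), a pseudocount of 0.01 (0.0510) and quantile normalization (0.148), and LAMA5 and ITGB3 lost theirs under chromosome centring. The GC correction made 1 subunit, LAMA4, called higher where 0 were. A filter of 1 FPKM moved the median of the subunits from 0.06 to -0.0041, as it leaves out the 4 tested subunits averaging under 1 FPKM, and left 2 of 4 list genes called. A pseudocount of 1 gave 142 lower and 75 higher among all genes in place of 228 and 137. The cause of the other shifts was not tested.

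The replicate number as a block, with numbers that do not pair the libraries, gave an adjusted p of 0.0805 for ITGA6 and 0.0553 for LAMA5 in limma and ended no other of the 6 subunits; not every library correlated best with its own number.

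With 1 library left out in turn, subunits called lower numbered 0 to 1 (0 without shNT replicate 2, without shGPR81 replicate 1 and without shGPR81 replicate 2), called higher 0 to 1 (LAMA4 without shNT replicate 3) and with an adjusted p under 0.05 0 to 6 (0 without shNT replicate 2 or shGPR81 replicate 2, 1 without shGPR81 replicate 1 or 3). Over all genes 121 to 256 were called lower and 65 to 152 higher, and 2 to 3 list genes were called. The median of the subunits was 0.0057 (without shGPR81 replicate 1) to 0.12 (without shGPR81 replicate 3). Of 138 values 100 kept direction and side, 25 lost and 1 gained the threshold and 12 changed sign. The sign changed within -0.157 to 0.0133 for ITGA5, -0.0924 to 0.0476 for ITGA7, -0.194 to 0.0401 for ITGAV, -0.0239 to 0.0638 for ITGB1, -0.0742 to 0.376 for ITGB6 and -0.108 to 0.0392 for LAMB2, none of which had an adjusted p under 0.05. Rare subunits rest on few reads, such as 41 and 102 in all for ITGB8.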
